A study of Mus musculus with 47 samples.

Results

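Tmem176a and Tmem176b are neighbouring genes on mouse chromosome 6 that encode related multi-pass membrane proteins. They were chosen by name, as 2 of the 56748 genes in the count table, with earlier results of these data known. RNA was measured by bulk RNA-seq in B78-D14 cells, an amelanotic mouse melanoma line derived from B16 that lacks Cdkn2a, and in subcutaneous tumors grown from them. A mitochondrially targeted base editor had been used to place a truncating G>A mutation in Mt-Nd5, a mitochondrial gene for a complex I subunit. The cultured groups were 4 cultures of cells carrying the m.11,944 mutation at a heteroplasmy (share of mtDNA copies mutated) of 60% and 4 cultures of wild-type control cells. There were 3 groups of tumors: 7 tumors of m.12,436 60% origin, 7 of m.12,436 40% origin, and 4 control tumors of wild-type origin, those with labels numbered 001 to 004. None of these samples is labelled as treated, and all share the B78-D14 background.

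Each edited line is a population isolated by cell sorting after transfection, so cultures of one line share that history and a difference between lines cannot be told apart from the history of the line. The hosts were male C57BL/6 mice with an intact immune system, whose ages the labels do not give, and a tumor sample is a fragment in which melanoma cells and host cells are mixed. In such bulk samples, fewer cells of a type and less RNA per cell cannot be told apart. Total counts ran from 16475735 to 36173502 per sample. Of the melanoma markers, Mitf, the melanocyte lineage regulator, was at 8.48–26.3 counts per 1000000 counts (CPM) in the 8 cultures, while Tyr, which encodes tyrosinase, was at 0 counts in every culture. All markers of that list but Mitf had group means of at most 0.35 CPM in the cultures, the value of Pmel in m.11,944 60% cells. The count table held 47 columns and only the 26 described here were used. The m.11,944 and m.12,436 groups were tied to their columns partly through headings in the study's source data.

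TMEM176A and TMEM176B are related to the MS4A family and sit mainly in membranes of intracellular vesicles, where they have been described as cation channels. Both are best known from immune cells, in particular macrophages and conventional dendritic cells. TMEM176B has been described as a brake on the inflammasome, the caspase-1 activating complex, and both proteins have been linked to antigen presentation on MHC class II.

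The genes lie head to head. In GRCm39, Tmem176a (ENSMUSG00000023367) spans chr6:48817813-48824005 on the plus strand and Tmem176b (ENSMUSG00000029810) spans chr6:48809099-48819233 on the minus strand. Their canonical transcripts have 7 exons each, 1575 bases in all for Tmem176a and 1414 for Tmem176b, and start 103 bases apart, pointing away from each other. Because some annotated transcripts start further out, the spans overlap by 1421 bases, and 1084 exonic bases are shared between the genes on opposite strands. The setting for strand in the authors' counting is not given in the sources used here, so for reads from those shared bases the 2 genes are uncertain.

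The 102 bases between the canonical starts, chr6:48818309-48818410, were found whole in a RefSeq promoter window (GRCm38.p6) of each gene. They are 63.7% G or C, beside a median of 54.9% over the same length before 32817 RefSeq mouse starts, and hold 0 CG dinucleotides. A stretch of 30 bases from them, chr6:48818354-48818383 in GRCm39, is shown because it holds both motif matches found between the starts. The capitals mark the E-box letters (CANNTG) and then the ETS letters (AGGAAGT), read on the plus strand, 5′ to 3′.

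Between Tmem176b and Tmem176a: agtccCAGCTGcctgccAGGAAGTgttgag

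The search covered both strands. Among the 32817 RefSeq windows of the same length, 35.1% held CANNTG and 3.74% held AGGAAGT, so the ETS letters were the rarer match. Letters of 5 further motifs were searched for and not found in these 102 bases. The TATA box, spelled TATAAA, was present in 5.62% of the windows. The box spelled CCAAT was in 19.1% and the GC box, spelled GGGCGG, in 24.9%. The AP-1 site, spelled TGANTCA, was in 2.8% and the cyclic AMP element, spelled TGACGTCA, in 1.16%. A match is a run of letters and was not tested as a binding site.

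Both genes were lower in m.11,944 60% cells than in control cells. The 4 control cultures had 37.1, 33.0, 12.4 and 23.2 CPM of Tmem176a, numbered 1 to 4 as in the labels. The m.11,944 60% cultures had 10.7, 10.2, 4.50 and 5.95 CPM. The groups did not overlap, although control culture 3 lay only just above the highest mutant culture.

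Tmem176b showed the same arrangement at a higher level. Its control cultures were at 55.3, 48.0, 18.5 and 38.7 CPM, and its m.11,944 60% cultures at 13.6, 12.6, 6.69 and 8.20 CPM. Here too culture 3 was the lowest of its group on both sides, and every mutant culture was below every control culture.

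**Figure D1:**
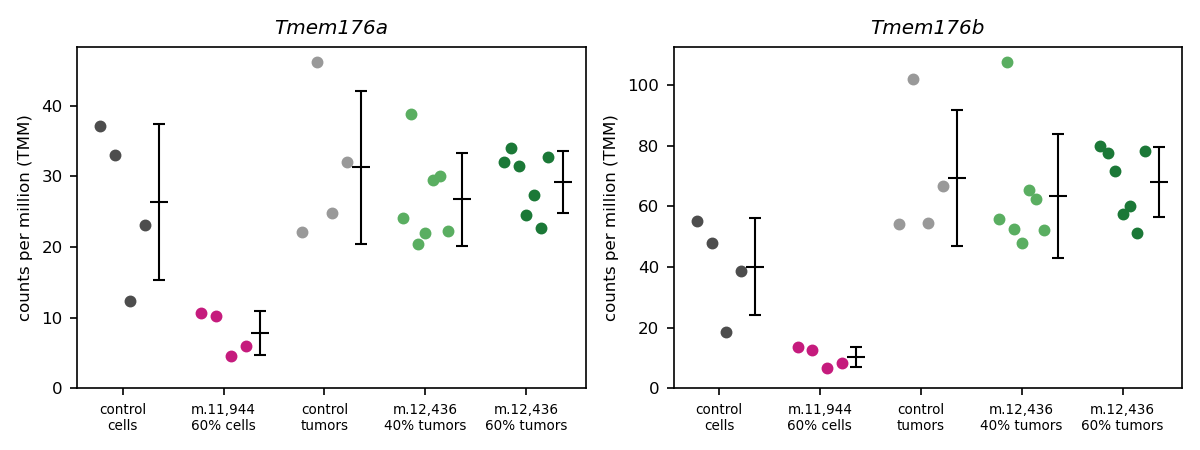
Level of Tmem176a (left) and Tmem176b (right) in each of the 26 samples, in CPM after TMM normalization, with the mean ± SD of each group beside its points. In the cultures every m.11,944 60% sample is below every control sample, whereas the 3 tumor groups overlap.

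Mean Tmem176a was 26.4 ± 11.04 CPM in control cells (SD, n = 4) and 7.84 ± 3.08 CPM in m.11,944 60% cells (SD, n = 4). Mean Tmem176b was 40.2 ± 15.9 CPM in the former (SD, n = 4) and 10.3 ± 3.35 CPM in the latter (SD, n = 4). In the edgeR fit the log2 fold change of Tmem176a was -1.72 (SE 0.40, 95% interval -2.65 to -0.80), a level 3.299-fold lower. That of Tmem176b was -1.94 (SE 0.37, 95% interval -2.78 to -1.09), a level 3.83-fold lower. Over all 12930 genes tested, the median log2 fold change was -0.0041 and the median size was 0.13. Ordered from the largest fall, Tmem176a ranked 34 and Tmem176b ranked 21.

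Because the pair was chosen with this comparison known, its difference is a description and carries no p. Without the replicate number neither gene was past an adjusted p of 0.1, the threshold used by the study, and 0.0387% of all genes were (5 of 12930). With the replicate number as a block 7.08% of all genes were past it in either direction and 4.08% were lower, and mutant cultures all lay below control cultures for 2.26% of all genes (292). The pair is among each of these, which restates how it was chosen, and nothing is read from it.

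The spread within each group followed the culture number. Cultures 1 and 2 had 1.97-fold the mean Tmem176a level of cultures 3 and 4 in control cells and 2.00-fold in m.11,944 60% cells. For Tmem176b these values were 1.80-fold and 1.76-fold. Within a number, Tmem176a was 3.47-, 3.23-, 2.74- and 3.89-fold lower in the mutant culture for numbers 1 to 4, and Tmem176b was 4.05-, 3.83-, 2.77- and 4.72-fold lower. All 4 numbers thus had both genes lower by at least 2.74-fold. With the number as a block, the log2 fold changes were nearly the same, at -1.71 (SE 0.11) for Tmem176a and -1.90 (SE 0.12) for Tmem176b, and their standard errors were smaller.

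**Figure D2:**
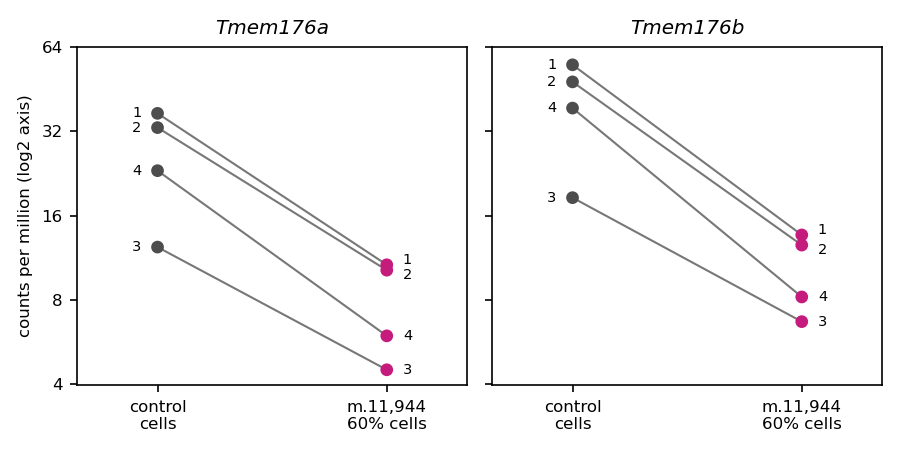
Level of each gene in control cells and m.11,944 60% cells, in CPM on a log2 axis, with lines joining cultures of the same number (1 to 4). The lines run nearly parallel, and number 3 is lowest at both ends for both genes.

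In the cultures the reads of the pair came without those of immune cells. Ptprc, the leukocyte marker CD45, had 0 counts in all 4 control cultures and at most 1 in a mutant culture, whereas the 18 tumors had 1334–4410. A count of 0 allows up to 3 counts in a sample, which covers counting error only. By total counts that is 0.0829–0.182 CPM over all samples, and the upper end is that of a tumor. Of 14 macrophage markers, 7 had 0 counts in every control culture and 7 in every mutant culture, among them the complement genes C1qa and C1qb. The summed macrophage level was 27.1–36.7 CPM in control cells and 26.9–32.5 CPM in m.11,944 60% cells, so the groups overlapped. It was largely Cd14, an endotoxin co-receptor, at 16.1 ± 1.94 CPM (SD, n = 4) against 15.8 ± 0.88 CPM (SD, n = 4), and Mertk, an engulfment receptor, at 12.4 ± 2.99 against 11.3 ± 3.04 CPM.

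Dendritic cell markers summed to 6.56–14.5 CPM in control cells and 5.73–9.79 CPM in mutant cells, most of it Clec9a. The neutrophil and monocyte list summed to 39.4–51.1 CPM in control and 45.7–59.6 CPM in mutant cells, nearly all Plac8, while Ccr2 had 0 counts. T and NK cell genes summed to at most 0.28 CPM and endothelial genes to at most 0.53 CPM in any culture. None of the marker lists had a member past an adjusted p of 0.1 in the edgeR fit of the cells, beside 0.0387% of all genes. With the replicate block, Clec9a was lower, with a log2 fold change of -0.48 (edgeR adjusted p = 0.0914), and the collagen gene Col3a1, of the fibroblast list, was higher by 0.48 (edgeR adjusted p = 0.079). Of all genes, 7.08% were past the threshold with that block.

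In the tumors the pair differed little between genotypes. Tmem176a was at 22.1, 46.2, 24.8 and 31.98 CPM in the 4 control tumors. It ran from 20.4 to 38.8 CPM (median 24.1, n = 7) in m.12,436 40% tumors and from 22.7 to 34.0 CPM (median 31.5, n = 7) in m.12,436 60% tumors. The ranges overlapped almost entirely, and the highest values were single tumors, control tumor 2 and 40% tumor 2.

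Tmem176b was at 54.1, 102, 54.5 and 66.7 CPM in the control tumors. It ran from 48.0 to 107.5 CPM (median 55.8, n = 7) at 40% and from 51.2 to 79.9 CPM (median 71.8, n = 7) at 60%. The same 2 tumors stood highest as for Tmem176a. The m.12,436 60% tumors had the narrowest range for both genes, at 1.498-fold and 1.56-fold between lowest and highest.

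For m.12,436 60% against control tumors the edgeR log2 fold change was -0.10 (SE 0.19, 95% interval -0.51 to 0.31) for Tmem176a and -0.03 (SE 0.21, 95% interval -0.48 to 0.42) for Tmem176b. Neither gene was called, beside 2.31% of 16213 genes. For 40% against control tumors, with the same control tumors, the values were -0.22 (SE 0.19, 95% interval -0.63 to 0.18) and -0.12 (SE 0.21, 95% interval -0.58 to 0.33). In that edgeR comparison 0.0% of genes were called, 825 had an unadjusted p under 0.05, and DESeq2 called 5. Between 60% and 40% tumors the log2 fold changes were 0.12 (SE 0.17, 95% interval -0.23 to 0.47) and 0.09 (SE 0.18, 95% interval -0.29 to 0.48), with 1.81% of genes called and neither member among them.

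All 6 tumor intervals included 0. The lowest bound among them, -0.63 for Tmem176a at 40%, was closer to 0 than the whole interval of either gene in the cells. The tumors carry m.12,436 and the cells m.11,944, so growth as a tumor and the site of the mutation cannot be told apart in that contrast, and the difference between cell and tumor changes was not tested. Leaving out control tumor 2 turned Tmem176a and Tmem176b at 60% to 0.16 and 0.22 and at 40% to 0.04 and 0.13. Tmem176b at 60% also turned positive, at 0.01 and 0.04, without 60% tumor 4 or 6.

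**Figure D3:**
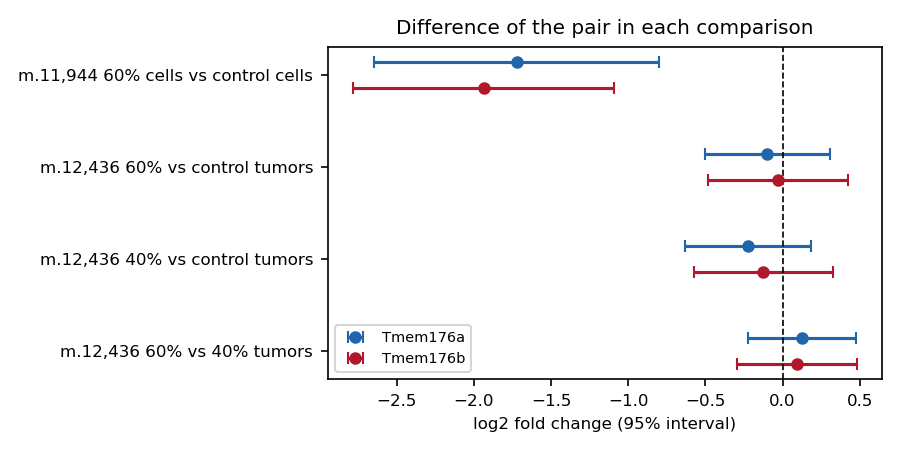
Log2 fold change of Tmem176a (blue) and Tmem176b (red) in the 4 comparisons, with 95% intervals from the edgeR fits. Only in the comparison of m.11,944 60% cells with control cells do the intervals lie away from 0.

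Ordered by mean CPM, Tmem176a was lowest in m.11,944 60% cells (7.84), followed by control cells (26.4), 40% tumors (26.7), 60% tumors (29.3) and control tumors (31.3). Tmem176b had the same order, at 10.3, 40.2, 63.4, 68.0 and 69.3 CPM. For both genes, only the step from m.11,944 60% cells to control cells separated the ranges of 2 neighbours in that order, and the other neighbouring groups overlapped.

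Tmem176b was the more abundant of the pair in all 26 samples. Divided by canonical length, control cells had 16.8 ± 7.01 CPM per kb of Tmem176a (SD, n = 4) and 28.4 ± 11.3 CPM per kb of Tmem176b (SD, n = 4). The ratio of Tmem176b to Tmem176a counts varied less than either level: in control cells its highest value was 1.15-fold the lowest, against 3.00-fold for Tmem176a and 2.98-fold for Tmem176b. It was 1.46–1.67 in control cells, 1.23–1.49 in m.11,944 60% cells, 2.09–2.45 in control tumors, 2.07–2.77 in 40% tumors and 2.20–2.49 in 60% tumors.

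The ratio therefore separated all tumors from all cultures. Between wild-type samples the mean log2 ratio was 1.16 ± 0.098 in control tumors (SD, n = 4) and 0.61 ± 0.089 in control cells (SD, n = 4), a 1.46-fold difference. This comparison was chosen after the ratios had been seen, so the values are a description and carry no p. Leaving out any one of these 8 samples kept the log2 difference between 0.50 and 0.59. Summed macrophage markers differed far more between the same groups, with medians of 30.2 CPM in control cells and 1501 CPM in control tumors, and their part in the ratio was not tested.

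**Figure D4:**
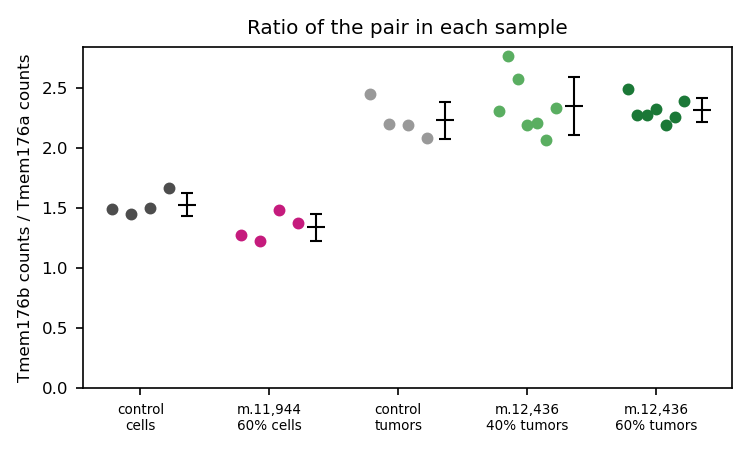
Ratio of Tmem176b to Tmem176a counts in each sample, with the mean ± SD of each group beside its points. All 8 cultures lie at or below 1.67 and all 18 tumors at or above 2.07.

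From tumor to tumor the pair moved together. After subtraction of group means, log2 CPM of Tmem176a and Tmem176b over the 18 tumors had a Pearson r of 0.952 (permutation p = 1e-05, the smallest that 100000 permutations allow, adjusted p = 0.00013 over 13 relations). Spearman's rho was 0.899 (permutation p = 1e-05, adjusted p = 0.00013). Without the 2 tumors farthest from the median, r was 0.924. Within the groups of 7, r was 0.933 at 40% (exact permutation p = 0.00337, adjusted p = 0.0438) and 0.976 at 60% (exact permutation p = 0.00159, adjusted p = 0.0206). Spearman's rho was 0.857 in each of these groups (exact permutation p = 0.0238, adjusted p = 0.310), which did not pass the threshold. Exonic bases are shared between the genes, and their part in this relation was not tested.

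Each gene was the closest match of the other among the 12206 genes with a mean log2 CPM of at least 1 over the tumors. Next to Tmem176a came Tbc1d13 (r = 0.813), Zfp36l2 (0.790), Eif2s3y (0.788) and Ppp1r3d (0.771). Next to Tmem176b came Fem1a (0.828), Smpdl3b (0.820), Tbc1d13 (0.816) and Fbrsl1 (0.810). These are descriptions over 18 tumors, and the step from 0.952 down to the next gene was wider than any later step among those named.

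The cultures gave no such separation. Over the 8 cultures, with group means subtracted, the pair had an r of 0.990, but 1571 of 10790 genes had an r of at least 0.9 with Tmem176a and 1107 with Tmem176b. Csad, Zfp688, Trp53i11, Arhgef25 and Pim1 (r = 0.997–0.999) led for Tmem176a, and Ogdhl, Tor3a, Acsl3, Rras and Lamtor2 (r = 0.994–1.000) for Tmem176b. Tmem176b stood 42nd for Tmem176a and Tmem176a 15th for Tmem176b. These 8 points share the 4 culture numbers, along which many genes varied together in both groups. The labels do not say what a number stands for.

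The levels of the pair in tumors were set beside those of the cells that are known to express it. Macrophage markers, scored as the mean log2 CPM of the list, had an r of 0.179 with Tmem176a (permutation p = 0.421, adjusted p = 0.608) and 0.290 with Tmem176b (permutation p = 0.188, adjusted p = 0.608) over the 18 tumors. Spearman's rho was 0.201 (adjusted p = 0.600) and 0.311 (adjusted p = 0.600). Without the 2 tumors farthest from the median score, r was 0.144 and 0.273. Neither relation passed the threshold, with 18 tumors.

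Dendritic cell, neutrophil and monocyte, and T and NK cell scores had r between 0.172 and 0.274 with either gene (permutation p from 0.244 to 0.478, adjusted p from 0.608 to 0.622). Their rho ran from 0.228 to 0.286 (adjusted p = 0.600). Fibroblast and endothelial scores had r between -0.304 and 0.113 (permutation p from 0.275 to 0.705, adjusted p from 0.608 to 0.705), with rho from -0.0031 to 0.1001 (adjusted p from 0.869 to 0.994). Without the 2 tumors farthest from the median of each score, r was between 0.058 and 0.130 for the first 3 scores. The fibroblast values turned positive, at 0.242 and 0.133, and the endothelial ones negative, at -0.286 and -0.412. None of these 12 relations with a marker score passed an adjusted p of 0.1.

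Within a group the signs differed for several scores, each value being over 7 tumors. For the T and NK cell score, r with Tmem176a and Tmem176b was -0.444 and -0.513 at 40% and 0.465 and 0.606 at 60%, and for the dendritic cell score it was -0.393 and -0.474 at 40% and 0.423 and 0.566 at 60%. The fibroblast score had -0.268 and -0.535 at 40% and 0.492 and 0.557 at 60%, and the neutrophil and monocyte score 0.0044 and 0.037 at 40% and 0.469 and 0.489 at 60%. The macrophage score had 0.077 and 0.256 at 40% and 0.450 and 0.550 at 60%. The endothelial score went the other way, with 0.731 and 0.762 at 40% and -0.155 and -0.336 at 60%. Its value with Tmem176b at 40% had the lowest p of these (two-sided exact permutation p = 0.0274, adjusted p = 0.178 over the 13 relations in that group). None of these values passed an adjusted p of 0.1 within its group, and the differences between the groups were not tested.

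**Figure D5:**
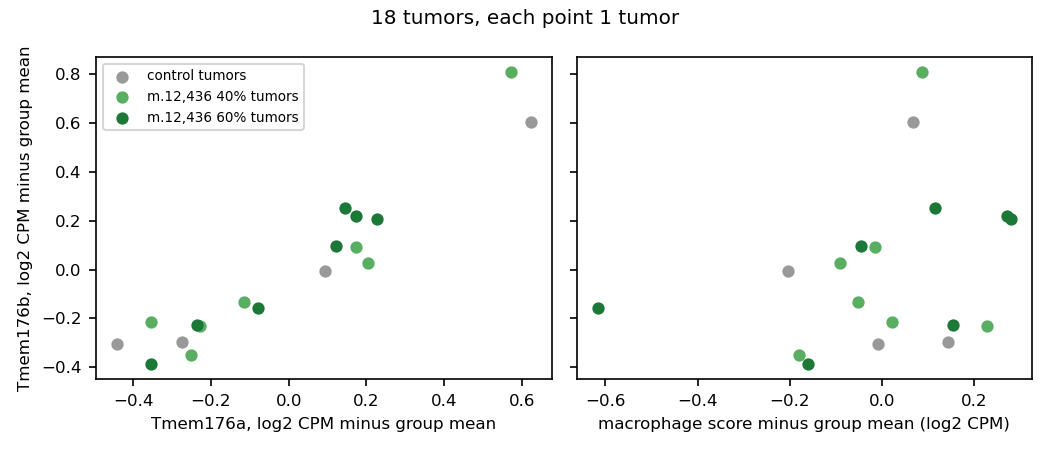
Tmem176b against Tmem176a (left) and against the macrophage marker score (right) in the 18 tumors, all as log2 CPM with the group mean subtracted. The points follow a line on the left (r = 0.952) and scatter on the right (r = 0.290).

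Macrophage markers were abundant in every tumor, unlike in the cultures. They summed to 1318–1613 CPM in control tumors, 1303–1640 CPM at 40% and 1129–1964 CPM at 60%, led by C1qa. All 14 were tested and none was called in any tumor comparison, with 11 higher and 3 lower at 60% against control tumors (median log2 fold change 0.16, beside -0.0025 over all genes). Of all genes, 2.31% were called at 60% against control tumors, 0.0% at 40% against control and 1.81% at 60% against 40%. With the macrophage score as a covariate, the log2 fold changes against control tumors were -0.10 and -0.04 at 60% and -0.23 and -0.14 at 40% for Tmem176a and Tmem176b, close to those without it. Of 11 dendritic cell markers none was called, and 9 were higher at 60% than in controls (median 0.29). All 12 T and NK cell markers were higher at 60% (median 0.71), again with none called. The 5 endothelial genes were all lower (median -0.17) and 5 of 7 fibroblast genes were lower (median -0.09), with none called, and of the 8 neutrophil and monocyte genes tested 3 were higher and 5 lower (median -0.07), with none called.

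Of the 3 B cell markers tested 1 was called at 60% against control tumors, beside 2.31% of all genes. Pax5, a B cell transcription factor, was lower at 60% than in control tumors, at 2.58 ± 0.86 CPM (SD, n = 7) against 5.63 ± 1.65 CPM (SD, n = 4), and its log2 fold change was -1.12 (edgeR adjusted p = 0.0256). Of the 3 melanoma genes tested, Mitf and S100b were not called, with log2 fold changes of 0.23 and 0.17. Pmel, a melanosome gene, had a log2 fold change of -2.21 (edgeR adjusted p = 0.0456) that rests on control tumor 3: without it the value was -0.56 (edgeR adjusted p = 0.559). With the replicate block Pmel was at -1.62 (edgeR adjusted p = 0.234), but tumor numbers do not pair the tumors. The 1 keratinocyte gene tested, of 5, was not called. No cell type marker of these lists was called at 40% against control tumors or at 60% against 40%. Of all genes, 0.0% and 1.81% were called there.

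The MS4A family, the closest relatives of the pair, was nearly silent in the cultures. All but 2 of its 16 genes had 0 counts in the control cultures and all but 1 in the mutant cultures, with at most 1 count, so none could be tested there. In tumors the family summed to 115–249 CPM, led by Ms4a6d and Ms4a7, both known from macrophages, and 11 genes were tested. Ms4a6d was at 36.6 ± 3.55 CPM in control tumors (SD, n = 4), 38.2 ± 6.22 CPM at 40% (SD, n = 7) and 41.4 ± 6.93 CPM at 60% (SD, n = 7). Ms4a8a, at 1.54 ± 0.52 CPM at 60% (SD, n = 7) and 0.72 ± 0.21 CPM in controls (SD, n = 4), was higher with a log2 fold change of 1.11 (edgeR adjusted p = 0.0768), but it stayed called in only 3 of 11 fits that left out 1 tumor. It was the 1 gene of the family called in that comparison, beside 2.31% of all genes.

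Of 14 inflammasome genes, 4 were tested in the cells and none was called, beside 0.0387% of all genes. With the replicate block Aim2, a DNA sensor, was lower in m.11,944 60% cells by 0.38 on the log2 scale (edgeR adjusted p = 0.0836), at 11.2 ± 0.54 CPM (SD, n = 4) against 14.9 ± 2.38 CPM (SD, n = 4). The fit with the block called 7.08% of all genes. Nek7, a kinase that binds Nlrp3, was the most abundant of the list at 246 ± 22.1 against 235 ± 21.2 CPM (SD, n = 4 each). All 14 were tested in the tumors. At 60% against control tumors 2 were called, both higher, beside 2.31% of all genes, and 13 of 14 were higher in value (median 0.40, beside -0.0025 over all genes). T and NK cell genes and MHC class II genes were higher in value in the same comparison, with medians of 0.71 and 0.69, and their part in this was not tested.

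The called genes were caspases. Casp1, which cleaves interleukin-1β, was at 19.8 ± 2.67 CPM at 60% (SD, n = 7) and 12.5 ± 3.81 CPM in controls (SD, n = 4), a log2 fold change of 0.67 (edgeR adjusted p = 0.0704). Casp4, the caspase that senses cytosolic lipopolysaccharide, was at 10.8 ± 2.07 against 6.67 ± 1.89 CPM, a log2 fold change of 0.69 (edgeR adjusted p = 0.082). Against 40% tumors, Casp4 was higher by 0.60 on the log2 scale (edgeR adjusted p = 0.0815) and Nlrp3, the sensor, by 0.43 (edgeR adjusted p = 0.0831), beside 1.81% of all genes called. At 40% against controls none of the list was called, beside 0.0% of all genes. These calls were near the threshold: Casp1 stayed called in 5 of 11 fits that left out 1 tumor and Casp4 in 4 of 11. Both lost the call with the replicate block, but tumor numbers do not pair the tumors, so nothing is read from that loss. Between 60% and 40% tumors, Casp4 stayed called in 4 of 14 such fits and Nlrp3 in 5 of 14. Tmem176b was at -0.03 at 60% against control tumors and at 0.09 at 60% against 40% tumors, as given above.

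Of 14 MHC class II pathway genes, 4 were tested in the cells. H2-DMb1, a peptide-loading chaperone subunit, was at 2.89 ± 0.79 CPM in m.11,944 60% cells (SD, n = 4) and 1.24 ± 0.45 CPM in control cells (SD, n = 4). Its log2 fold change was 1.24 in both fits, not called without the block (edgeR adjusted p = 0.824) and called with it (edgeR adjusted p = 0.028). Of all genes, 0.0387% were called without the block and 7.08% with it. Lgmn, a lysosomal protease, was the most abundant at 64.6 ± 10.8 against 53.8 ± 10.3 CPM (SD, n = 4 each). In the tumors none of the 14 was called in any comparison, beside 2.31% of all genes at 60% against control, 0.0% at 40% against control and 1.81% at 60% against 40%. At 60% against control, 13 were higher in value (median 0.69, beside -0.0025 over all genes). Cd74, the invariant chain, was the most abundant there, at 372 ± 215 CPM in control tumors (SD, n = 4), 384 ± 209 CPM at 40% (SD, n = 7) and 689 ± 364 CPM at 60% (SD, n = 7).

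None of the genes around the pair that could be tested was called in the cells, beside 0.0387% of all genes. In the cultures, Gm44764, which overlaps the end of Tmem176a by 14 exonic bases, and Gm7932 beyond it had at most 1 count, and Aoc1, a diamine oxidase gene, had 0. On the Tmem176b side the pseudogene Gm17834 had 0 counts, and Gm66288, annotated between it and Tmem176b, was not analysed here. Gimap3, of the lymphocyte GTPase cluster further out on that same side, had 0 counts in all 8 cultures and 1.59–10.5 CPM in the tumors. Of 61 genes within 500 kb, 17 were tested in the cells, with 8 higher and 9 lower (median -0.0011). With the replicate block, Zfp775, a zinc finger gene, was higher by 0.40 on the log2 scale (edgeR adjusted p = 0.0803). That fit called 7.08% of all genes. In the tumors 27 were tested, and Atp6v0e2, a proton pump subunit gene, was lower at 60% than in controls, with a log2 fold change of -1.34 (edgeR adjusted p = 0.0329) at 1.18 ± 0.57 against 3.00 ± 1.029 CPM. It was the 1 neighbour called in that comparison, beside 2.31% of all genes. Without control tumor 3, Atp6v0e2 was at -1.08 and no longer called (edgeR adjusted p = 0.215).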

How the data were processed

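The authors aligned reads to GRCm39 with STAR 2.7.10a in two-pass mode, counted them per gene with featureCounts of subread 2.0.3 on Ensembl 107, and deposited a table of raw counts for 56748 genes. RNA extraction, library construction and sequencing were done by a company, and the strand setting is not given in the sources used here. Of 47 columns, 21 were not used because their sample could not be told. Library size was each column's total.

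Levels are CPM (counts per 1000000) with 1 TMM normalization over 26 samples. The 8 cultures and the 18 tumors were fitted separately in R 4.3.3 with edgeR 4.0.16 (filterByExpr, TMM, robust quasi-likelihood test, Benjamini-Hochberg over all genes tested, adjusted p under 0.1). The fits were tested on simulated data. Culture numbers pair the cultures: deviations from group means correlated across genes at 0.718–0.832 for each same-numbered pair. Correlations across tumors used log2 CPM (prior count 2) with group means subtracted and 100000 two-sided permutations within groups, with exact enumeration within groups of 7. A score needed 5 list genes with enough counts.

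The pair, the 13 gene lists and the tests were chosen with earlier results of these data known, and 1 of the lists is not reported here. Genes named are list members or neighbours past the threshold, the most abundant list members, the nearest neighbours and the 5 most similar genes. Alternatives were limma-voom (limma 3.58.1), DESeq2 1.42.0, its size factors, other filters, the replicate block, a threshold of 0.05, only the 2 groups compared, a macrophage covariate, a prior count of 0.25 and leaving out each sample. The ratio comparison and the alternatives for list genes were added after seeing the data. Gene positions are from GENCODE M39, which held 56017 of the genes, and promoter windows from RefSeq.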

Additional observations from a re-analysis of the deposited data

Results flagged for a closer look

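One value of the pair lay far from its group. Tmem176b in m.12,436 40% tumor 2 was at 107.47 CPM, and the next highest of the 7 tumors was at 65.3 CPM. The gap took up 0.7102 of the whole range of the group, above Dixon's 95% critical value for 7 samples. It was the only 1 of 15 groups of values looked at, and chance gives about 1 in 20. Tmem176a was highest in the same tumor, at 38.8 CPM, as was the ratio of the counts, at 2.77. Without this tumor, the log2 fold change of Tmem176b for 40% against control tumors was -0.30 in place of -0.12, and for 60% against 40% tumors it was 0.27 in place of 0.09.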

How the results depend on the processing

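The log2 fold changes of both genes in the cells ran from -1.73 to -1.68 for Tmem176a and from -1.94 to -1.88 for Tmem176b over the planned settings, and from -1.96 to -1.52 and from -2.18 to -1.75 when 1 culture was left out. In tumors the planned settings moved no value of the pair by as much as the spread between tumors. Only Tmem176b at 60% against control tumors changed sign among them, to 0.07 with the replicate block. Leaving out 1 tumor gave -0.23 to 0.16 and -0.13 to 0.22 at 60%, -0.36 to 0.04 and -0.30 to 0.13 at 40%, and 0.07 to 0.24 and 0.04 to 0.27 for 60% against 40%, for Tmem176a and Tmem176b.

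Counts of changed genes depended far more on the setting, and the cause was not tested. In the cells, 5 genes became 84 with DESeq2, 0 with at least 10 counts in every sample, 916 with the replicate block and 0 in each of the 8 fits without 1 culture. For 60% against control tumors, 374 became 1056 with DESeq2, 943 with only the 2 groups compared, 178 with the replicate block, 150 at an adjusted p under 0.05 and 66 to 717 without 1 tumor, lowest without control tumor 3 and highest without control tumor 2. For 40% against control tumors, 0 became 5 with DESeq2 and 0 to 3 without 1 tumor. For 60% against 40%, 293 became 744 with DESeq2, 178 with no filter on low counts, 113 at an adjusted p under 0.05 and 108 to 452 without 1 tumor. Tumor numbers do not pair the tumors (mean correlation of same-numbered deviations -0.156, -0.0058 and -0.0264), so the block there only marks a shared number.

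Of the correlations across all tumor groups, the pair kept its call in each setting. No relation with a marker score gained one, but several changed sign. With 1 tumor left out, Tmem176a with the dendritic cell score ran from -0.028 to 0.325 and with the fibroblast score from -0.268 to 0.247, and Tmem176b with the fibroblast score from -0.390 to 0.195. The endothelial score ran from -0.171 to 0.296 with Tmem176a and from -0.287 to 0.288 with Tmem176b. Without the 2 tumors farthest from the median, the fibroblast values were 0.242 and 0.133 and the endothelial ones -0.286 and -0.412.

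The labels do not say that cultures were grown separately, so p values measure only the spread between these samples. Counting error is small at these depths, with at least 103 counts of either gene in a sample.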
